A study of Mus musculus with 6 samples.

Results

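The interferon response and RNA sensor genes are the genes that detect foreign RNA in a cell and those that interferon switches on. They were chosen by name, as a list of 38 symbols, with earlier results of these data known. Of the 38, 35 had a probe set of their own among 19937 genes measured this way. RNA was taken from dissociated whole livers of 6 FVB/NJ mouse embryos at embryonic day 13.5, 3 wildtype and 3 Klf1-/-, in a colony of Klf1+/- mice, with 1 array per embryo. Klf1 is a zinc finger activator of red cell genes, and the labels do not say which part of it the null allele lacks, nor from which litters the embryos came. Isg15 and Gbp2 were read only by probe sets shared with Gm9706 and Gbp2b, and no probe set was named for Ifi44.

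In most cells the helicases RIG-I (Ddx58) and MDA5 (Ifih1) bind viral RNA and pass the signal through Mavs to the factors Irf3 and Irf7, which turn on type I interferon genes. Interferon binds the receptor made of Ifnar1 and Ifnar2, and a complex that holds Stat2 and Irf9 then binds the interferon-stimulated response element in the promoters of many antiviral genes. In the fetal liver, macrophages digest the nuclei that red cell precursors expel, and mice that lack the nuclease of this step make interferon there.

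Levels are log2 of the deposited intensity. A change is the mean log2 level in knockout arrays less that in wildtype arrays, and the number after ± is its standard error in limma. A call needed an adjusted p (Benjamini-Hochberg, over all genes) under 0.05, with n = 3 arrays per group throughout. In a whole liver, fewer cells of a type and less RNA per cell cannot be told apart. Apart from filters and ranks by level over all genes, the level of 1 probe set was not set against that of another. The share of all genes called was 19.1%, made up of 10.8% with a rise and 8.26% with a fall.

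The arrays had lower quartiles of log2 intensity between 5.16 and 5.25 and upper quartiles between 8.61 and 8.71. The Klf1 probe set fell by 1.46 ± 0.10. The hepatoblast genes Alb and Afp averaged 13.93 and 13.31 in wildtype, and the red cell gene Slc4a1 averaged 13.57. Of 13 erythroid markers 8 fell and 1 rose, all 8 megakaryocyte markers and 5 of 12 granulocyte markers rose, and 9 of 17 macrophage markers fell. The summed linear intensity of the macrophage markers was 7284 to 8892 in wildtype and 5196 to 5874 in the knockout arrays. That of the granulocyte markers was 5926 to 6633 and 7562 to 9554. How far these cell types account for the interferon genes below was not tested.

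Of the 35 measured genes, 8 rose (22.9%, against 10.8% of all genes) and 1 fell (2.86%, against 8.26% of all genes). Those that rose were Ddx58, Cmpk2, Parp14, Ifitm3, Mx2, Cxcl10, Xaf1 and Stat2, and the gene that fell was Rsad2. The median change was 0.14, against -0.02 over all genes. The groups did not overlap in 13 of the 35 (37.1%), a share near the 37.5% of all genes. The 8 rises became 5 without wildtype replicate 1, 4 without wildtype replicate 2 and 4 without knockout replicate 2, and the median became -0.0016 without the latter. They became 4 with each array centred on its 75th percentile, 5 with centring on housekeeping genes and 0 without moderation of the variance, where 8 members were higher and 1 lower at an unadjusted p under 0.05.

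**Figure D1:**
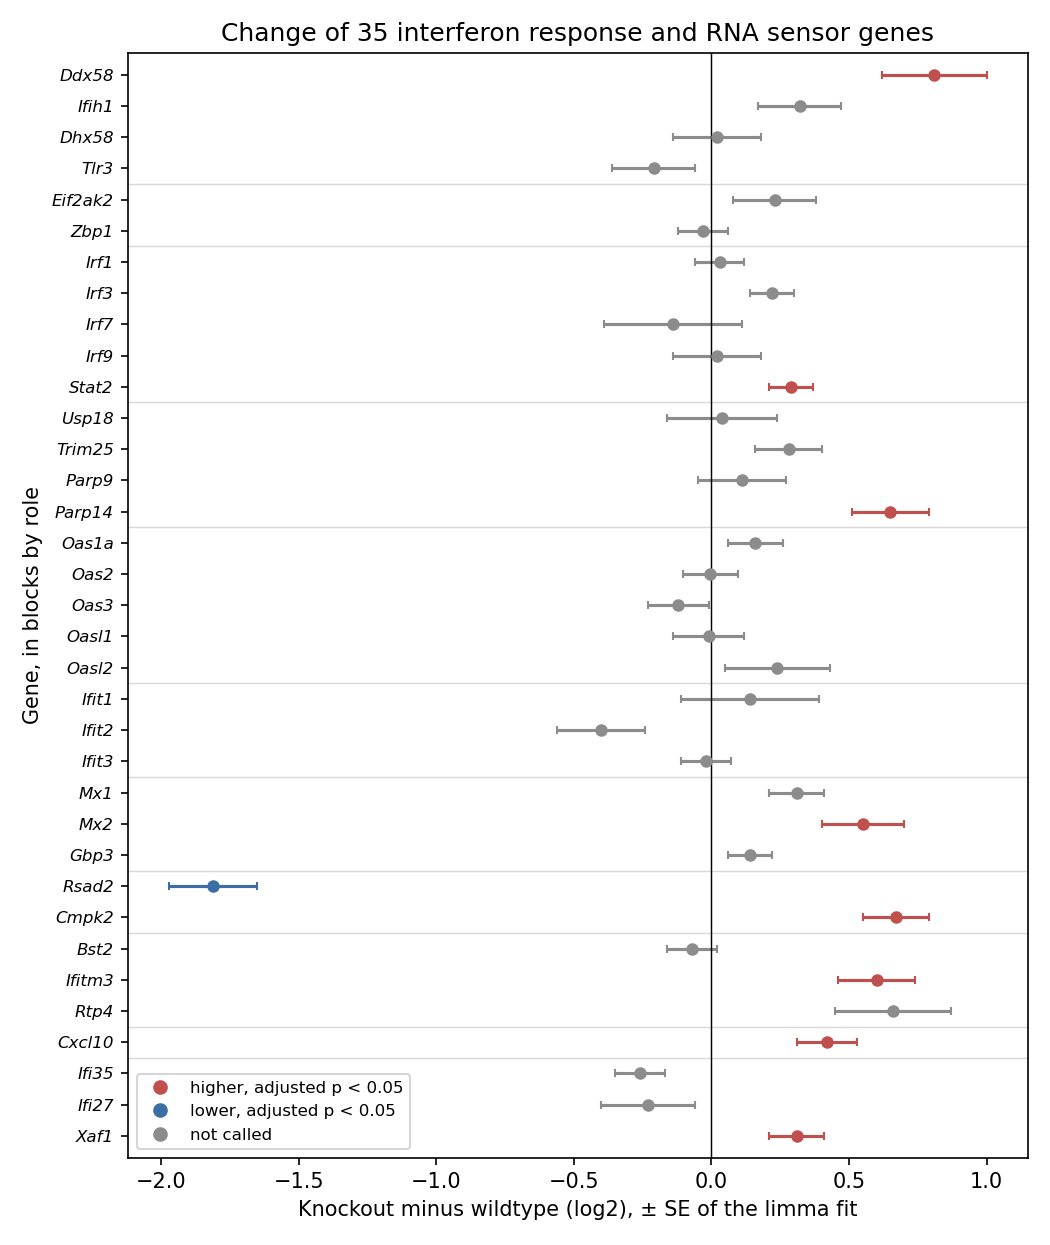
Log2 change of each of the 35 measured genes (knockout less wildtype); bars are 1 standard error and lines part the genes into blocks by role. Most points lie within 0.4 of 0, 8 are called higher, up to 0.81 in Ddx58, and Rsad2 stands alone at -1.81.

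Rsad2 had the largest change of the list. It encodes viperin, a radical SAM enzyme that makes a chain-terminating nucleotide from CTP and so blocks the copying of viral genomes. It read 8.25, 7.85 and 8.53 in wildtype replicates 1, 2 and 3 and 6.40, 6.64 and 6.16 in knockout replicates 1, 2 and 3. The groups lay more than 1 unit apart, with every knockout array below every wildtype array. The fall of 1.81 ± 0.16, 3.50-fold, passed the test (limma adjusted p = 2.4e-05), and it was called under all 17 alternatives, at -1.99 to -1.65. Only 0.311% of all genes had a change as low.

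Cmpk2 stands next to Rsad2 on chromosome 12 with no coding gene between them, and the 2 are transcribed from opposite strands. It encodes a mitochondrial nucleotide kinase known to be induced together with viperin. Here it moved the other way. It read 7.88, 7.86 and 7.81 in wildtype and 8.56, 8.77 and 8.25 in the knockout, so that the lowest knockout array was above the highest wildtype array. The rise of 0.67 ± 0.12 (limma adjusted p = 0.00249) was called with any 1 array left out and lost without moderation (adjusted p = 0.0796). Rsad2 and Cmpk2 are the only neighbouring pair of the list in which both genes were called, and the calls went in opposite directions.

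The promoters of these neighbours are shown for that reason, with those of the sensor gene Ddx58 and of Ifitm3, both of which rose. They are RefSeq windows of GRCm38.p6 from 250 bases before to 30 bases after the start, 5′ to 3′ on the strand of the gene. Rsad2 is chr12:26456423-26456702 on the minus strand, Cmpk2 is chr12:26468965-26469244 on the plus strand, Ddx58 is chr4:40239796-40240075 on the minus strand and Ifitm3 is chr7:141010715-141010994 on the minus strand. Capitals mark matches to the interferon element, which is GAAA, any 2 bases and GAAA again (TTTC, any 2 bases and TTTC on the other strand), and to the Klf element CCNCNCCC (GGGNGNGG on the other strand), where N is any base.
Rsad2: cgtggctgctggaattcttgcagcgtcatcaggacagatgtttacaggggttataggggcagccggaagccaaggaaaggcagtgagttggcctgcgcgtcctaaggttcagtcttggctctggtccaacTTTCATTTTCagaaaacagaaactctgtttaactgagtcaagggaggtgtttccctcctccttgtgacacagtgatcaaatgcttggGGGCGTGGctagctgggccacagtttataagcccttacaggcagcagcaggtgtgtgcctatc
Cmpk2: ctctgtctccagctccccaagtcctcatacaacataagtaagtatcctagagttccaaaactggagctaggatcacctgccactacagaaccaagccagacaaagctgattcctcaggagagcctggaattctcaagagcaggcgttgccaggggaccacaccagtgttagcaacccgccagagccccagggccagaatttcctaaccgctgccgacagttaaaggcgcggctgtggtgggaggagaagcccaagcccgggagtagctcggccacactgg
Ddx58: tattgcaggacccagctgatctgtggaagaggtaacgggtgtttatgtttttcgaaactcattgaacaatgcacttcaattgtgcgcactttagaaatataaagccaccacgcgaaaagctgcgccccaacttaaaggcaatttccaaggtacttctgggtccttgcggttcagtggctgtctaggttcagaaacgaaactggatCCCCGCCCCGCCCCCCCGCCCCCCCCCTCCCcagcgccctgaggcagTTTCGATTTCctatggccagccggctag
Ifitm3: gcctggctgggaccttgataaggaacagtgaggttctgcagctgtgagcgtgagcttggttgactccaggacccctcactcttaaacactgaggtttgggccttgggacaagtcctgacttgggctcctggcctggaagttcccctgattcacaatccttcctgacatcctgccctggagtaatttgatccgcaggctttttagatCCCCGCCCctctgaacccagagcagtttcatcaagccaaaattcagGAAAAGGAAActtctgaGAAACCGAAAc

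Rsad2 had 1 interferon element, TTTCATTTTC, with its first base at -120, and 1 Klf element, GGGCGTGG, at -33, counting the bases before the start from -1. Cmpk2 had neither in its window. In Ddx58 the interferon element TTTCGATTTC began at 3 and 8 overlapping matches to the Klf element lay between -45 and the start. Ifitm3 held 2 interferon elements, GAAAAGGAAA at 3 and GAAACCGAAA at 20, and 1 Klf element, CCCCGCCC, at -44. A match is a description of the letters and no evidence of binding.

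Windows of 300 bases, 250 before and 50 after the start, were found for 28 of the 38 genes. An interferon element was in 15 of them (53.6%), against 3.99% of the 27025 genes with a window. They were Ddx58, Ifih1, Eif2ak2, Stat2, Isg15, Oas1a, Oas3, Ifit1, Ifit3, Gbp2, Gbp3, Rsad2, Bst2, Ifitm3 and Cxcl10. Isg15 held 3 overlapping matches, GAAAAGGAAA, GAAACCGAAA and GAAACAGAAA, and Bst2 held GAAAATGAAA and GAAACTGAAA. A Klf element was in 16 of 28 (57.1%), near the 51.9% of all genes, and the GATA element AGATAA in 6 of 28 (21.4%), against 12.7%. Among measured genes with a window, 4 of 13 with an interferon element and 2 of 12 without one rose, with median changes of 0.16 and 0.03.

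Of the 4 RNA sensors, Ddx58 rose and 3 were not called. RIG-I, its product, detects RNA with a triphosphate at its end. Ddx58 read 7.83, 7.60 and 7.76 in wildtype and 8.57, 9.0 and 8.06 in the knockout. The knockout arrays were all above the wildtype arrays but spread far more, with an SD of 0.47 against 0.12. The rise of 0.81 ± 0.19 (limma adjusted p = 0.0124) ran from 0.58 to 1.05 over the alternatives and was lost without moderation (adjusted p = 0.172).

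Ifih1, the gene of the long RNA sensor MDA5, read 8.28, 7.99 and 8.29 in wildtype and 8.50, 8.84 and 8.20 in the knockout. Knockout replicate 3 lay inside the wildtype range, and the change of 0.32 ± 0.15 was not called (adjusted p = 0.151). It was called without knockout replicate 3 (0.48, adjusted p = 0.0394) and was at 0.16 without knockout replicate 2 (adjusted p = 0.466). Dhx58 (LGP2), the regulator of both helicases, was at 0.02 ± 0.16, and Tlr3, the endosomal receptor for double-stranded RNA, at -0.21 ± 0.15. Eif2ak2, the gene of the RNA-activated kinase PKR, which halts translation, was at 0.23 ± 0.15. Zbp1, whose product senses Z-form nucleic acids, was at -0.03 ± 0.09. Neither was called.

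Among the transcription factors Stat2, part of the complex that carries the interferon signal to the nucleus, rose from 8.08, 8.09 and 8.04 in wildtype to 8.24, 8.42 and 8.40 in the knockout. The 2 groups were tight and apart. The change of 0.29 ± 0.08 was small (limma adjusted p = 0.0307) and the call was lost when any array but knockout replicate 1 was left out. It was also lost with quantile normalization (adjusted p = 0.0906), 75th percentile centring (0.0587) and a replicate block (0.052). Irf9, the partner of Stat2, was at 0.02 ± 0.16. Irf3, present before any signal, was at 0.22 ± 0.08 (adjusted p = 0.0759), with groups apart, and was called when the test was limited to genes above the median level (adjusted p = 0.0349). Irf7, the factor that amplifies interferon production, was at -0.14 ± 0.25, with a 95% interval of ± 0.56 around the change. Irf7 read 6.74, 6.65 and 7.39 in wildtype and 6.79, 7.33 and 6.24 in the knockout, so its arrays spread over more than 1 unit within the knockout. Irf1 was at 0.03 ± 0.09.

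Of the 4 measured members grouped as regulators and the ISG15 system, only Parp14 was called. Parp14, an ADP-ribosyltransferase, read 7.32, 7.11 and 7.27 in wildtype and 7.87, 8.20 and 7.57 in the knockout. The groups were apart, and the rise of 0.65 ± 0.14 (limma adjusted p = 0.00838) was kept with any 1 array left out and lost without moderation (adjusted p = 0.135). Parp9, which stands close to it on chromosome 16, was at 0.11 ± 0.16. Trim25, the ubiquitin ligase that activates RIG-I, was at 0.28 ± 0.12 (adjusted p = 0.132), and Usp18, which removes ISG15 and damps the receptor, at 0.04 ± 0.20. The probe set shared by Isg15, the ubiquitin-like modifier, and Gm9706 was at -0.0034 ± 0.13, tested over all probe sets (adjusted p = 0.99).

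None of the 5 oligoadenylate synthetase genes, whose true enzymes make the messenger that activates RNase L, was called, with changes from -0.12 in Oas3 to 0.24 in Oasl2. Between them lay Oas1a at 0.16, Oas2 at -0.0044 and Oasl1 at -0.01. A further probe set, shared by Oas1a and Oas1g, was at 0.31 ± 0.16, not called over all probe sets (limma adjusted p = 0.257). Oasl2 ran from -0.0016 to 0.48 with 1 array left out, and was called at 0.48 without knockout replicate 3 (limma adjusted p = 0.0477). None of the 3 Ifit genes, whose products bind viral RNA and hold back translation, was called: Ifit1 was at 0.14 ± 0.25 and Ifit3 at -0.02 ± 0.09. Ifit2 read 7.82, 7.46 and 7.05 in wildtype and 6.94, 7.19 and 7.01 in the knockout, groups that overlapped, with a change of -0.40 ± 0.16 (adjusted p = 0.114). Without wildtype replicate 3 it was called at -0.59 (adjusted p = 0.0146), and without wildtype replicate 1 it was at -0.21 (adjusted p = 0.29).

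Mx2 is 1 of 2 Mx GTPases, which trap viral nucleocapsids. Both genes were dim, at percentile 13.9 (Mx2) and 7.96 (Mx1) of level over all genes. Mx2 read 4.40, 4.29 and 4.71 in wildtype and 4.95, 5.35 and 4.77 in the knockout. Its rise of 0.55 ± 0.15 (limma adjusted p = 0.0253) was lost without wildtype replicate 1 (adjusted p = 0.0634), wildtype replicate 2 (0.0919) or knockout replicate 2 (0.0811), and with 75th percentile centring (0.0525) or housekeeping centring (0.0604). Mx1 read 4.33, 3.97 and 4.03 in wildtype and 4.39, 4.51 and 4.38 in the knockout; the groups were apart, and the change of 0.31 ± 0.10 was not called (adjusted p = 0.0551). It was called without wildtype replicate 1 (0.42, adjusted p = 0.00884), with quantile normalization (0.35, 0.0467) and with the Y-linked covariate (0.32, 0.047). In many laboratory strains Mx1 carries a deletion, so its transcript need not give a working protein. Whether the Mx2 transcript gives one in these mice was not tested. Gbp3, a guanylate-binding GTPase, was at 0.14 ± 0.08, and the probe set shared by Gbp2 and Gbp2b at -0.29 ± 0.08, not called over all probe sets (adjusted p = 0.0669).

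Ifitm3, a membrane protein that blocks virus fusion, read 8.85, 8.89 and 9.0 in wildtype and 9.49, 9.85 and 9.18 in the knockout. All knockout arrays were higher. The rise of 0.60 ± 0.14 (limma adjusted p = 0.0148) was kept with any 1 array left out and lost without moderation (adjusted p = 0.164). Rtp4, a chaperone of membrane receptors, read 6.54, 6.36 and 6.57 against 6.97, 7.78 and 6.71. Its groups were apart and knockout replicate 2 stood high, and the change of 0.66 ± 0.21 was not called (adjusted p = 0.0539). Leaving out knockout replicate 3 made it a call, at 0.89 (adjusted p = 0.0125), and leaving out knockout replicate 2 took it to 0.35 (adjusted p = 0.0729). Bst2 (tetherin), which holds budding virus at the cell surface, was at -0.07 ± 0.09.

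Cxcl10, the chemokine that draws T cells, read 7.43, 7.43 and 7.76 in wildtype and 7.91, 8.14 and 7.84 in the knockout. The rise of 0.42 ± 0.11 (limma adjusted p = 0.026) was lost without wildtype replicate 1 (0.37, adjusted p = 0.0711), wildtype replicate 2 (0.36, 0.0922) or knockout replicate 2 (0.33, 0.102). It was also lost with quantile normalization (0.35, adjusted p = 0.0608), 75th percentile centring (0.36, 0.0596) and housekeeping centring (0.40, 0.0734). Xaf1, a partner of the apoptosis inhibitor XIAP, read 6.0, 5.92 and 6.05 against 6.42, 6.39 and 6.10, a change of 0.31 ± 0.10 (adjusted p = 0.0461). That call was lost when any array but knockout replicate 3 was left out. It was also lost with 75th percentile centring (adjusted p = 0.115), housekeeping centring (0.135), a replicate block (0.0627) and the Y-linked covariate (0.0527). It was kept in 4 of the 16 alternatives that tested Xaf1. Ifi35 was at -0.26 ± 0.09 with groups apart (adjusted p = 0.0763; called in 4 of the alternatives, at -0.34 to -0.26) and Ifi27 at -0.23 ± 0.17. Of the 9 calls, those of Rsad2, Cmpk2, Ddx58, Parp14 and Ifitm3 were the 5 kept with each array left out in turn.

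**Figure D2:**
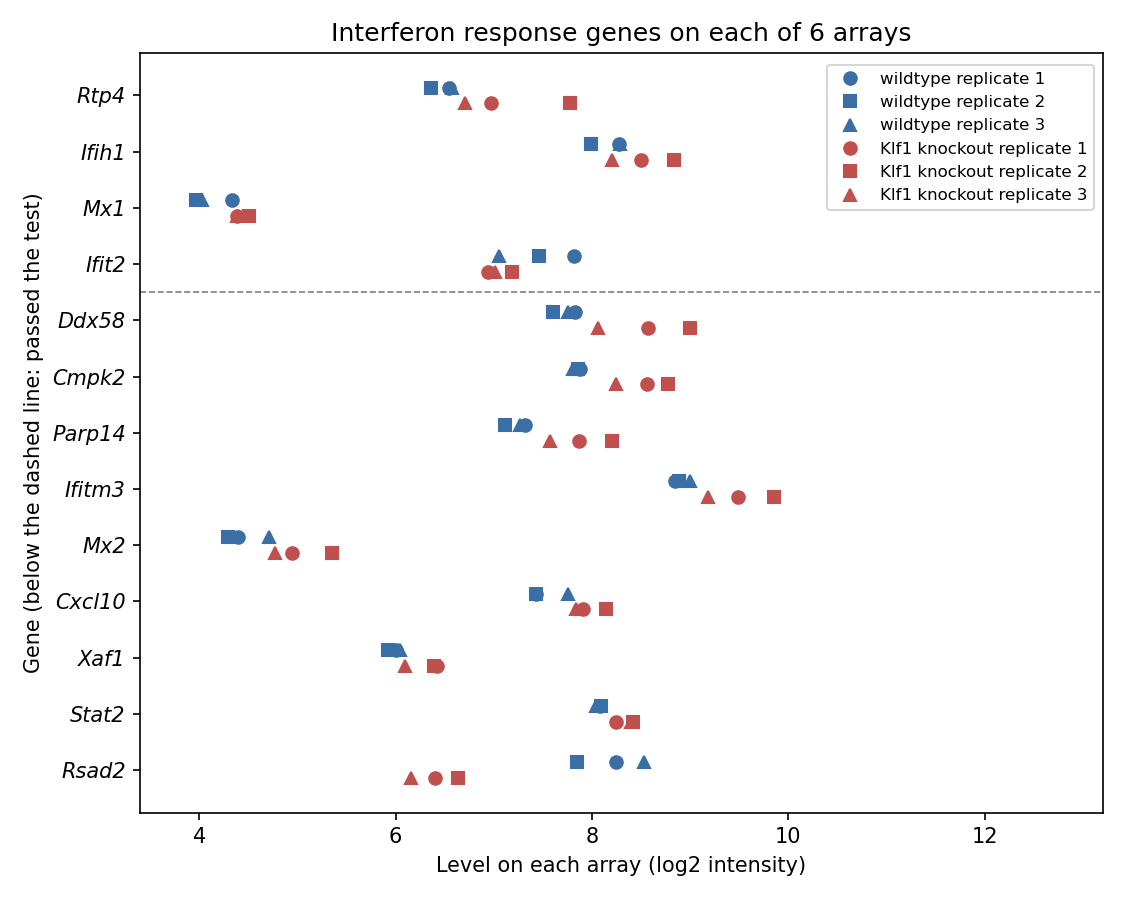
Log2 intensity of 13 genes on each array, with wildtype in blue and knockout in red and a symbol for each replicate number; below the dashed line are the 9 called genes and above it the 4 uncalled genes with the largest change. Rsad2 is the only one of the 9 with the knockout on the left, and knockout replicate 3 (red triangle) is the lowest knockout array for most genes.

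The median residual SD of the 35 genes between embryos of 1 genotype was 0.24, against 0.11 over all genes, and 29 of 35 (82.9%) were above the latter. Some marker lists also lay above it, with medians of 0.21 for granulocytes, 0.20 for endothelium and 0.18 for megakaryocytes. Knockout replicate 2 was the highest knockout array in 29 of 35 genes, against 31.9% of all genes, and knockout replicate 3 the lowest in 28 of 35, against 27.5% of all genes. The gap between these 2 embryos had a median of 0.49 over the members and -0.01 over all genes. It exceeded 0.5 in 17 of 35 members (48.6%) and in 0.471% of all genes. Both this limit and the 2 embryos were picked after the values were seen, and the gap is 1 contrast between 2 embryos.

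The gap was 1.11 in Ifit1, 1.09 in Irf7, 1.07 in Rtp4, 0.99 in Usp18 and 0.95 in both Ddx58 and Oasl2. It was 0.02 in Stat2, -0.03 in Irf3 and -0.13 in Irf1. Rsad2 followed the same order within the knockout, with a gap of 0.48, although its level there was below wildtype. Cmpk2 had a gap of 0.52. Within wildtype, replicate 2 was the lowest array in 24 of 35 members (68.6%, against 25.8% of all genes), and the gap from replicate 3 reached 0.74 in Irf7, 0.72 in Ifit1 and 0.68 in Rsad2. The median gap between knockout replicates 2 and 3 was 0.35 in members with an interferon element in their window and 0.45 in those without.

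Y-linked genes, which mark male embryos, averaged 4.02 and 4.05 in knockout replicates 2 and 3 and 9.33 in knockout replicate 1. In wildtype they averaged 4.09, 8.76 and 4.16 in replicates 1, 2 and 3. Wildtype replicate 2, the lowest wildtype array in 24 of 35 members, was thus the only wildtype array with a high Y-linked level. The part of sex in these patterns was not tested. Granulocyte markers were higher in knockout replicate 2 than in replicate 3 in 10 of 12, with a median gap of 0.24, lymphoid and plasmacytoid dendritic cell markers in 9 of 12, with a gap of 0.11, and macrophage markers in 10 of 17, with a gap of 0.05. Megakaryocyte markers were higher in 1 of 8, with a median gap of -0.21, endothelial in 0 of 10 (-0.16), hepatoblast in 0 of 11 (-0.09), stem and progenitor in 3 of 10 (-0.06) and erythroid in 5 of 13 (-0.01). In wildtype, replicate 3 was the highest array in 10 of 10 endothelial, 15 of 17 macrophage, 9 of 11 hepatoblast and 10 of 13 erythroid markers. It was the highest in 4 of 12 lymphoid and plasmacytoid dendritic, 3 of 10 stem and progenitor, 1 of 12 granulocyte and 1 of 8 megakaryocyte markers. The share of all genes was 31.2%. The part of these cell types in the gaps of the interferon genes was not tested.

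**Figure D3:**
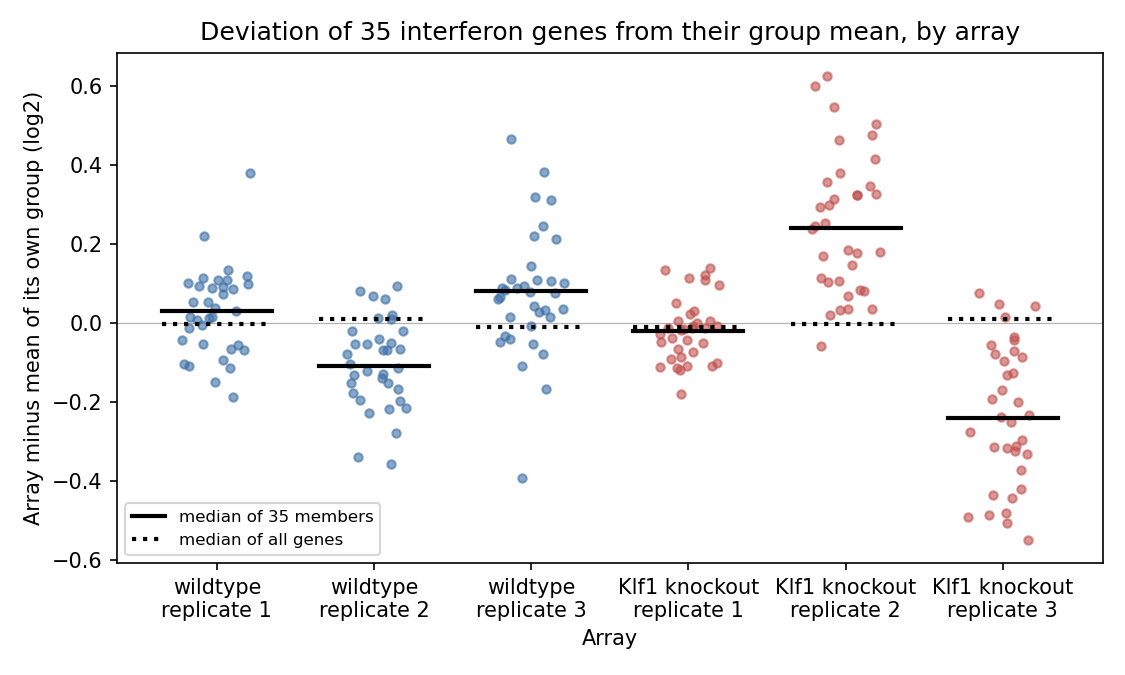
Deviation of the 35 genes from the mean of their own group on each array, in log2 units; each point is a gene, solid bars are the median of the 35 and dotted bars that of all 19937 genes. The members' median was 0.24 in knockout replicate 2 and -0.24 in knockout replicate 3, while the median of all genes stayed near 0 on every array.

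The rest of the pathway was read from 116 other measured genes of the interferon system. Of these 14 rose (12.1%) and 10 fell (8.62%), shares near the 10.8% and 8.26% of all genes, and 14 of the 24 calls were kept with each array left out in turn. The 14 rises became 9 without knockout replicate 2, and the 10 falls became 6 without knockout replicate 3.

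None of the 15 interferon genes with a probe set rose. Most were dim, with 8 of the 15 below the 25th percentile of level over all genes and 13 below the median. Ifnb1, usually the first type I interferon to be made, was at -0.15 ± 0.10, Ifng at -0.10 ± 0.08 and Ifna4 at -0.07 ± 0.10. Ifna5 fell by 0.33 ± 0.10 (adjusted p = 0.0342), a call lost when either replicate 2 or either replicate 3 was left out.

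The receptor chains were lower. Ifnar2, the signalling chain with the higher affinity, read 11.05, 11.01 and 11.21 in wildtype and 10.35, 10.44 and 10.37 in the knockout. The groups were far apart, and the fall of 0.70 ± 0.08 was called (limma adjusted p = 0.000162). Ifnar1 fell by 0.35 ± 0.08 (adjusted p = 0.0105). The receptors for interferon gamma were not called, with Ifngr1 at -0.06 ± 0.10 and Ifngr2 at 0.11 ± 0.09. Of the kinases Jak1 was at -0.16 ± 0.07 and Tyk2 at 0.26 ± 0.10, both uncalled. Stat3 rose by 0.62 ± 0.08 and its feedback inhibitor gene Socs3 fell by 0.68 ± 0.11 (adjusted p = 0.000306 and 0.00119).

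Of 19 adaptors, kinases and other sensors, Ticam1, the adaptor of Tlr3, rose by 0.44 ± 0.08 (adjusted p = 0.00204), and Traf6 rose by 0.34 ± 0.09, a call lost without wildtype replicate 3 or any 1 knockout array. Tlr8 fell by 0.40 ± 0.11, a call lost without wildtype replicate 1 or knockout replicate 1 or 3. Mavs, the adaptor of RIG-I and MDA5, was at 0.04 ± 0.08, Tbk1 at 0.17 ± 0.08, Cgas at 0.14 ± 0.11 and Sting1 at 0.36 ± 0.13 (adjusted p = 0.0807). Of 13 nucleases and RNA-editing genes, the interferon-induced exonuclease gene Isg20 fell by 0.87 ± 0.09, from 10.26 ± 0.11 to 9.39 ± 0.12 (SD, n = 3; adjusted p = 7.82e-05). Rnaseh2a fell by 0.27 ± 0.08, a call lost with any 1 array left out. Dnase2a, the nuclease of macrophages that digests engulfed nuclei, was at -0.12 ± 0.09 (adjusted p = 0.424), Trex1 at 0.06 ± 0.07 and Adar at -0.01 ± 0.13.

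Of 53 further interferon-induced genes 10 rose (18.9%, against 10.8% of all genes) and 3 fell (5.66%, against 8.26%). Their median change was 0.06, against -0.02 over all genes. Ube2l6, the enzyme that passes ISG15 to its targets, read 12.08, 11.96 and 12.00 in wildtype and 11.01, 11.19 and 10.98 in the knockout, a fall of 0.95 ± 0.08 (limma adjusted p = 2.09e-05). The nuclear body gene Pml fell by 0.56 ± 0.09. Ifi203 rose by 0.81 ± 0.19, a call lost without wildtype replicate 3, and the proteasome activator gene Psme1 rose by 0.74 ± 0.09. Trim21, an antibody receptor in the cytosol, rose by 0.57 ± 0.11, Lgals9 by 0.55 ± 0.10, Parp10 by 0.52 ± 0.11 and the RNA helicase gene Mov10 by 0.44 ± 0.08. The other rises were Gbp7 at 0.65 ± 0.17, Stat4 at 0.55 ± 0.10, Helz2 at 0.46 ± 0.14 and Ifitm2 at 0.26 ± 0.08. The other fall was Ifi30 at -0.32 ± 0.10. The calls of Gbp7, Helz2, Ifitm2 and Ifi30 were each lost when some single arrays were left out, and that of Stat4 was kept. B2m, the light chain of MHC class I, was at -0.12 ± 0.08, and Tap1, its peptide transporter gene, at 0.18 ± 0.11. In this list, too, knockout replicate 2 was the highest knockout array in 38 of 53 genes (71.7%) and replicate 3 the lowest in 31 (58.5%). Among the 16 receptor and Jak-Stat genes replicate 2 was the highest in 10 and replicate 3 the lowest in 2.

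**Figure D4:**
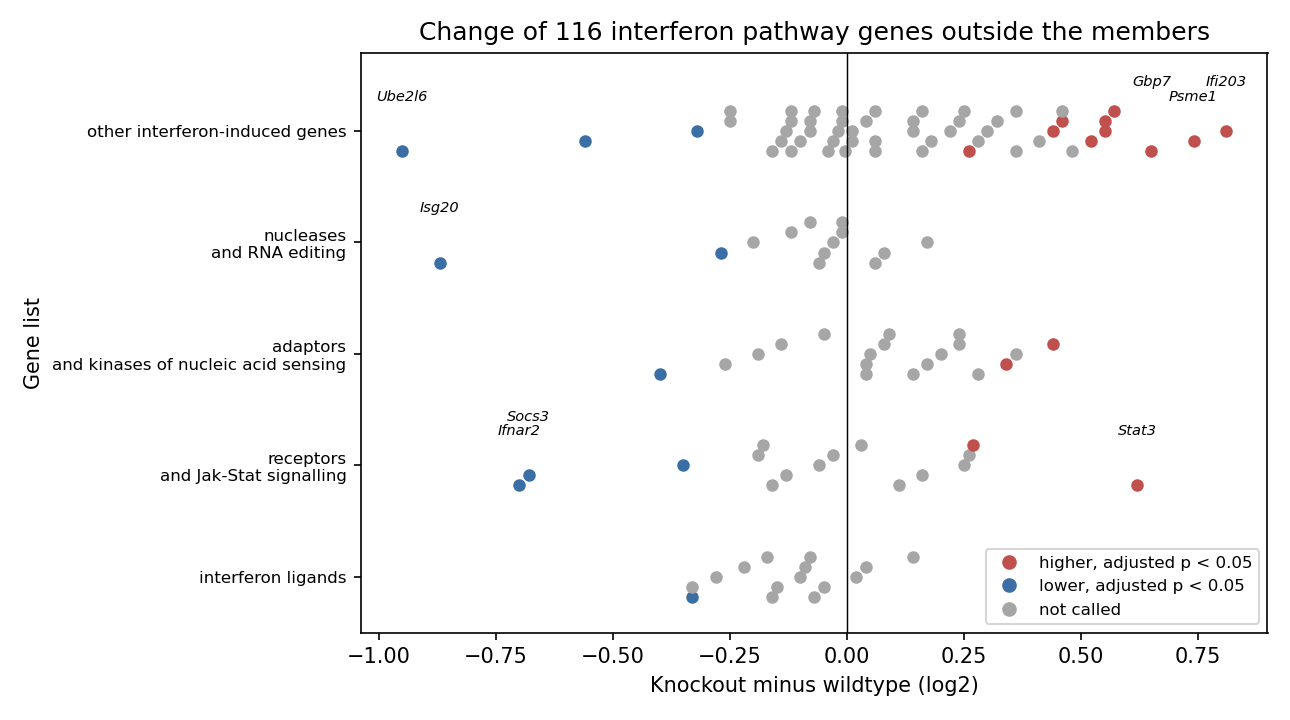
Change of 116 interferon pathway genes outside the 35, given as the log2 difference of knockout from wildtype, with 1 line per list, points in red where called higher and in blue where called lower, and names for calls beyond 0.6. Ube2l6, Isg20, Ifnar2 and Socs3 lie to the left and Ifi203, Psme1, Gbp7 and Stat3 to the right, while the interferon genes lie between -0.33 and 0.14.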

How the data were processed

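RNA from each dissociated liver went onto 1 Affymetrix Mouse Gene array, per the labels' protocols. The authors deposited intensity values on a linear scale. The submitters' processing notes name RMA and version 1.8.6 of the Affymetrix Power Tools; a genome build is not given in the sources used here. Because RMA equalises the arrays, a change in total RNA cannot be seen. Log2 was taken, with no filter on dim genes. Arrays were grouped by their titles.

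Of 34760 probe sets, 21640 had 1 gene in the platform annotation, and the brightest stood for a gene. The genotypes were compared in limma 3.58.1 (R 4.3.3; lmFit, then eBayes), with no term but genotype. P-values are 2-sided and were adjusted over 19937 genes by Benjamini and Hochberg's method. An exact permutation test of 3 against 3 cannot go below p = 0.10. The labels do not state separate litters, so the tests reflect only how far these particular embryos differ.

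The members and lists were chosen with earlier results of these data known. All members are named; the 9 called and the 4 largest uncalled are given per array, and the called pathway genes may be named. Promoter windows are from RefSeq on GRCm38.p6, matched by symbol. Irf7, Ifnar2 and Ube2l6 were given per array after their values were seen. Alternatives were other normalizations and centrings, filters, probe set rules, variance models, a stricter threshold, a replicate block, a Y-linked covariate and leaving out each array.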

Additional observations from a re-analysis of the deposited data

How the results depend on the processing

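The 9 called members kept their direction in each of the 17 alternatives that tested them. The 8 rises were 4 with 75th percentile centring, 5 with housekeeping centring, 0 without moderation and 2 at an adjusted p under 0.01, and 4 to 10 with 1 array left out. The single fall became 2 with quantile normalization, 75th percentile centring or genes above the median level, and 1 to 2 with 1 array left out. The 14 pathway rises were 9 with housekeeping centring, 4 without moderation, 8 at the stricter threshold and 9 to 17 with 1 array left out; the 10 falls were 6, 5 and 6 to 9 for the last 3 of these, and 15 with 75th percentile centring. The members' median ran from -0.0016 to 0.24 with 1 array left out. Calls over all genes numbered 3809, 2083 without moderation and 1995 at the stricter threshold, and 2409 and 2414 without knockout replicate 2 or 3; 75th percentile centring made 61.0% of them lower, in place of 43.2%.

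Same-numbered arrays did not deviate together (correlations of -0.16, -0.22 and 0.18; 2 of 6 arrays correlated best with their own number). With 3 arrays per group this cannot settle whether the numbers pair embryos, and the labels do not say. With a replicate block 7 members rose and 1 fell, and 13 and 9 pathway genes did.

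The sign turned under an alternative in 13 uncalled members. With quantile normalization Zbp1 was at 0.07, Irf9 at -0.07, Usp18 at -0.02, Oas2 at 0.05 and Ifit3 at 0.08. With 75th percentile centring Dhx58 was at -0.04, Irf1 at -0.03, Irf9 at -0.04 and Usp18 at -0.02. With 1 array left out Dhx58 ran from -0.13 to 0.24, Zbp1 ran from -0.09 to 0.01, Irf1 ran from -0.04 to 0.08, Irf7 ran from -0.42 to 0.13, Irf9 ran from -0.16 to 0.18, Usp18 ran from -0.21 to 0.29, Parp9 ran from -0.08 to 0.30, Oas2 ran from -0.09 to 0.05, Oasl1 ran from -0.10 to 0.16, Oasl2 ran from -0.0016 to 0.48, Ifit1 ran from -0.16 to 0.40, Ifit3 ran from -0.11 to 0.03 and Bst2 ran from -0.12 to 0.0036. The number of arrays limits precision, and Mx1 and Mx2 were not among the genes tested above the 25th percentile of level. The cause was not tested for any of these.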

Other observations

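Over all genes, 94 were higher by over 0.5 in knockout replicate 2 than in knockout replicate 3, embryos picked after the values were seen. Of these genes 17 were among the 35 members and 12 among the 116 pathway genes. In the opposite direction there were 81 genes, 0 of them members and 1 a pathway gene. The largest gaps outside these lists, named after their values were seen, included other interferon-induced genes. Oas1b, an inactive oligoadenylate synthetase, read 6.22, 6.86 and 5.69 in knockout replicates 1, 2 and 3, a gap of 1.17. Ifi205, a gene of the Ifi200 family of nucleic acid-binding proteins, had a gap of 1.22, and its relatives Ifi202b and Ifi207 had gaps of 0.92 and 0.91. Ifi44l, a relative of the unmeasured Ifi44, read 6.81, 7.79 and 6.87, a gap of 0.92. Between genotypes Ifi205 rose by 0.91 ± 0.26 (limma adjusted p = 0.0322), while Oas1b, Ifi44l, Ifi202b and Ifi207 were at 0.18 ± 0.22, 0.15 ± 0.23, 0.37 ± 0.19 and 0.17 ± 0.19 and were not called. Rnf213, an interferon-induced ubiquitin ligase, had a gap of 0.64 between the embryos and rose between genotypes by 0.90 ± 0.14 (limma adjusted p = 0.000989), with all 3 knockout arrays at 9.25 or more and all 3 wildtype arrays at 8.71 or less.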
